A study of Mus musculus with 3 samples.

Results

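Ocel1, Borcs8, B3gnt3, Fam32a, Scoc, Gadd45gip1 and Asna1 are 7 genes of one stretch of mouse chromosome 8 whose transcript levels set a female knockout library apart from both other libraries of a glomerulus study. They were picked by symbol, because ratios between these same libraries had shown them shifted, and they are 7 of the 31058 rows of the gene table. The levels below therefore describe the genes and are no independent evidence of a difference. What was asked is whether the knockout library stood apart in every cell class alike, including classes that do not arise from Pax2-expressing progenitors.

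The 3 libraries held cells from the glomeruli, the blood filters of the kidney, of healthy C57Bl/6 mice, profiled with droplet 3′ RNA tags. One came from a female with oestrogen receptor alpha deleted in renal progenitor cells (RPC-ERαKO, called female ERaKO below), one from a female and one from a male. The genotype Pax2.rtTA;TetO.Cre;R26.Confetti, which gives doxycycline-driven Cre under the Pax2 promoter and a colour reporter, was common to the 3 animals, and the knockout mouse had the ERalphaKO allele in addition. Doxycycline was given at 20 days of age, and tracing ran to 90 days. Each group is 1 mouse and 1 library (n = 1), which leaves no measure of variation among animals, and no test was made.

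The 7 genes have different functions. Borcs8 is a subunit of BORC, the complex that couples lysosomes to kinesin through the GTPase Arl8, and Asna1 (Get3, TRC40) is the ATPase that carries tail-anchored proteins to the endoplasmic reticulum. Gadd45gip1 (Crif1) is a protein of the large mitochondrial ribosomal subunit that also binds Gadd45 proteins. Scoc is a short coiled-coil protein of the Golgi that takes part in starvation-induced autophagy in human cells, and B3gnt3 is a Golgi enzyme that adds N-acetylglucosamine to O-glycans and other sugar chains. Fam32a protein is found in the human spliceosome, and Ocel1 is named for its occludin and ELL domain. Oestrogen receptor alpha is a hormone-activated transcription factor that binds paired GGTCA half-sites facing each other across 3 bases.

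On GRCm38, the genes run along chromosome 8 in the order Borcs8 (70139499 to 70147319, plus strand), Ocel1 (71371298 to 71379361, plus), B3gnt3 (71690756 to 71701789, minus), Fam32a (72219730 to 72224418, plus), Scoc (83430084 to 83458391, minus), Gadd45gip1 (84831522 to 84835482, plus) and Asna1 (85017931 to 85025281, minus). They span 14.9 Mb with 242 counted genes and form 2 groups, with 11.2 Mb and 88 genes between Fam32a and Scoc. No member was next to another: 14 to 88 genes lay between one and the next. Esr1, the gene the allele targets, is on chromosome 10.

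RefSeq promoters of GRCm38.p6 were matched for 5 of the 7 genes, as 7 entries. The 250 bases before the start of transcription are shown for the genes with the highest fold differences in each direction, Ocel1 and B3gnt3, and for Fam32a, each with 1 half-site (GGTCA or its reverse complement TGACC) in capitals, 5′ to 3′ on the gene's own strand.

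Ocel1 promoter, chr8:71371048-71371297, plus strand: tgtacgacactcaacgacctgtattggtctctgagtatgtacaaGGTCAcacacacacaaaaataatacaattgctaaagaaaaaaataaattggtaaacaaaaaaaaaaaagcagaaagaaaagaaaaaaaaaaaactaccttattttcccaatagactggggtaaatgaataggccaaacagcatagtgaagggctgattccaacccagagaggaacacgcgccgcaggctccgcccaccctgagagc

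B3gnt3 promoter, chr8:71701801-71702050, minus strand: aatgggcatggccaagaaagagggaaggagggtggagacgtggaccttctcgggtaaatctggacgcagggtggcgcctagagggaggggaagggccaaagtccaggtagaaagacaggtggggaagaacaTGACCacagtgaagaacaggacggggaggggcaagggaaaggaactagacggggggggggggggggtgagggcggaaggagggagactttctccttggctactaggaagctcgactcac

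Fam32a promoter, chr8:72219495-72219744, plus strand: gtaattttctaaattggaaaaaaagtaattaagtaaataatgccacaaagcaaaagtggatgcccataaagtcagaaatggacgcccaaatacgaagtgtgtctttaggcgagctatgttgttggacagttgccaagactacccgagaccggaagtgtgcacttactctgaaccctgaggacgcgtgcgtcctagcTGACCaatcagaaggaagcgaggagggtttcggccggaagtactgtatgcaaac

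Over windows of 250 bases before and 50 after the start, searched on both strands, a half-site was present in 40.5% of 32851 mouse promoters. It was present once in the windows of Ocel1, B3gnt3 and Fam32a, and in 1 of the 2 entries each of Borcs8 and Scoc. The full palindrome (GGTCA, any 3 bases, TGACC) was in 0.0700% of all promoters, or 23, and in none of the 7 windows. The GC box GGGCGG occurred 5 times in one Borcs8 window, 2 times in that of Ocel1 and 1 time in that of B3gnt3, and 35.7% of all promoters held at least 1. These are matches of letters and say nothing of binding.

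The deposited tables held 3986, 3555 and 4244 barcodes with 47522141, 44942380 and 44585342 UMIs (molecular identifiers, 1 per captured transcript) in the female ERaKO, female and male libraries. Filtering kept 2471, 2847 and 3221 cells with median depths of 8039, 8857 and 7325 UMIs, and the share of barcodes above 25% mitochondrial UMIs was 33.99% in the female ERaKO library, higher than the 17.7% of the female and the 21.0% of the male library. Between 4 and 8 barcodes recurred in each pair of libraries. Cells were clustered and named from fixed markers, which gave 11 classes with at least 20 cells in each library. A class name below stands for cells like that type by their markers. Podocytes, the filter's epithelial cells, numbered 781, 1326 and 1140, but tubule, muscle, fibroblast-like and immune cells were present beside the glomerular types. Esr1 had 3, 1 and 2 UMIs in podocytes and 70, 8 and 14 in proximal tubule cells of the female ERaKO, female and male libraries. Which part of Esr1 was deleted is not in the labels, so 3′ tags cannot check the knockout.

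Levels are counts of a gene per 1e6 UMIs summed over the cells of a class (CPM), and ratios are log2 of CPM + 1, which understates differences of low genes. Intervals are 95% exact intervals without that pseudocount and reflect counting error alone, with nothing of the variation among mice. A ratio was counted where the libraries compared held at least 20 UMIs of the gene, and "past" means at least 1.5-fold.

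Ocel1 was higher in the female ERaKO library than in both others in each of the 10 classes in which it had enough UMIs. In podocytes it had 448 UMIs (62.9 CPM) in the female ERaKO library, 245 (15.8 CPM) in the female and 141 (13.4 CPM) in the male library, log2 ratios of 1.93 (1.77 to 2.23) over female and 2.14 (1.95 to 2.51) over male. In endothelial cells, outside the Pax2 lineage, it had 549 UMIs (115 CPM), 216 (31.1 CPM) and 191 (29.8 CPM) in the same order, ratios of 1.85 (1.65 to 2.12) and 1.91 (1.71 to 2.19). The female and male values lay close together in both classes, and the female ERaKO value lay far above them. Mesangial cells, the contractile support cells of the glomerulus, held 112, 13 and 17 UMIs (68.0, 24.5 and 12.2 CPM), and mononuclear phagocytes held 24, 15 and 12 (63.1, 22.7 and 18.5 CPM). Over the 10 classes the ratio to female ran from 1.18 in proximal tubule to 2.74 in fibroblast-like cells (median 1.84), and every interval excluded 0 against each library. T and NK cells held only 9, 6 and 4 UMIs and were not counted. Endothelial cells had the highest Ocel1 level in all 3 libraries. In the female ERaKO library its interval lay above that of mesangial cells, the next in order, and no other neighbours in that order had separate intervals, down to 27.0 CPM in smooth muscle and renin cells.

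**Figure D1:**
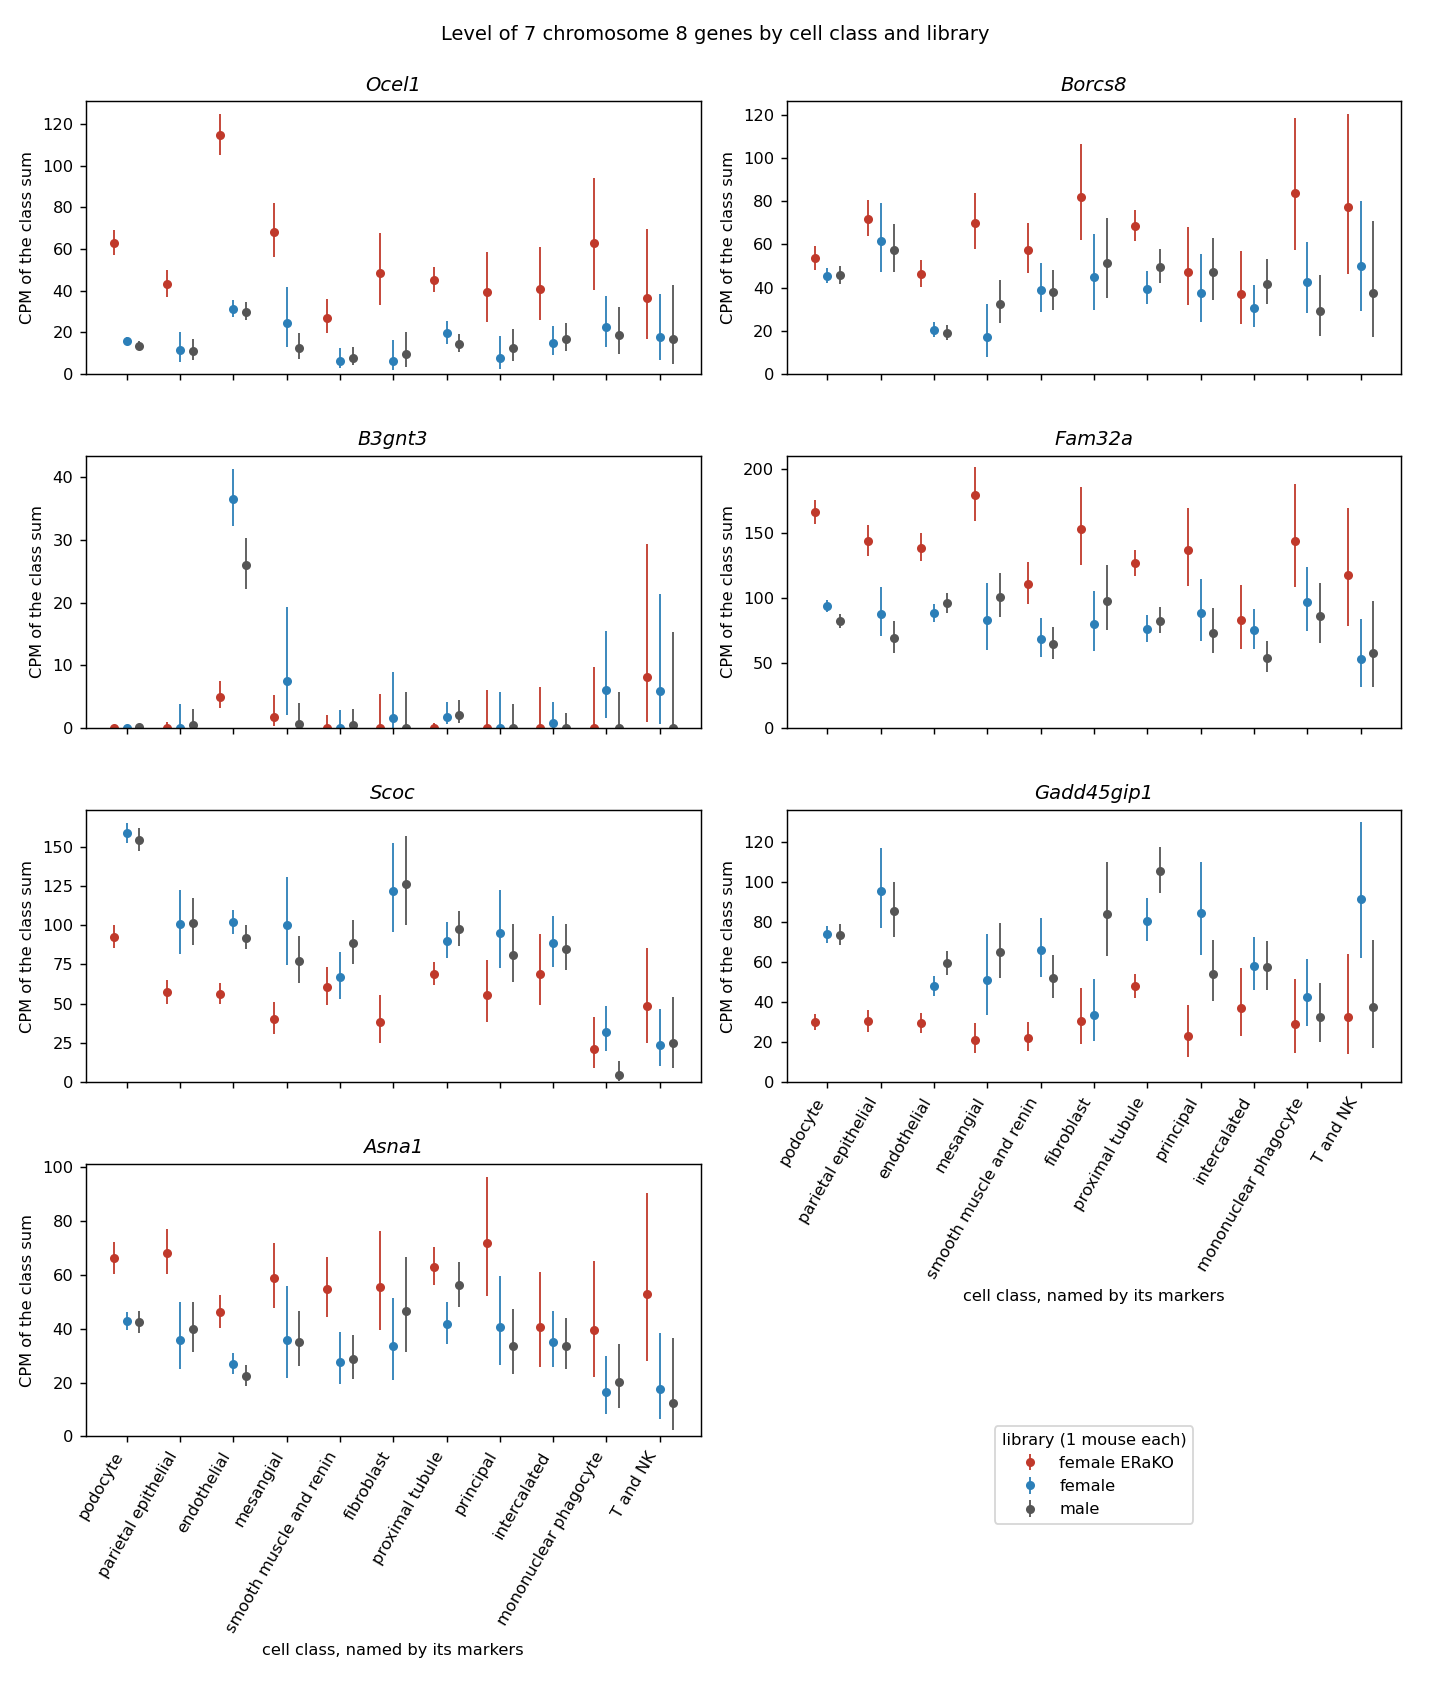
Level of each of the 7 genes (CPM of the class sum, linear axis from 0) in 11 cell classes, with points for the female ERaKO, female and male libraries from left to right (1 mouse each) and bars for 95% exact Poisson intervals of counting error. Ocel1 stands higher in the female ERaKO library in every class shown, Gadd45gip1 lower, and B3gnt3 has UMIs mainly in endothelial cells.

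Fam32a and Asna1 were also higher in the female ERaKO library in all classes, by less. Fam32a had 1185 UMIs (166 CPM) in podocytes of the female ERaKO library, 1457 (93.9 CPM) of the female and 864 (82.4 CPM) of the male library, ratios of 0.82 (0.71 to 0.94) and 1.005 (0.89 to 1.14). Across 11 classes its ratio to female ran from 0.14 in intercalated to 1.14 in T and NK cells (median 0.70), it was positive in 11 of 11, and 8 classes were past the fold against both libraries. Endothelial cells, at 139, 88.6 and 96.1 CPM, were past it against female (0.64) but not against male (0.53). Asna1 had 471 UMIs (66.1 CPM), 663 (42.7 CPM) and 445 (42.4 CPM) in podocytes of the female ERaKO, female and male libraries, ratios of 0.62 (0.46 to 0.80) and 0.63 (0.45 to 0.83). It was past the fold against both libraries in 8 of 11 classes and positive over female in 10 of the 10 with enough UMIs (median 0.74). In fibroblast-like and proximal tubule cells its male level was the nearer, with 55.7, 33.6 and 46.7 CPM and 62.9, 41.7 and 56.1 CPM.

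Borcs8 differed by class. In podocytes it was nearly level, with 382 UMIs (53.6 CPM), 706 (45.5 CPM) and 480 (45.8 CPM) in the female ERaKO, female and male libraries and a ratio to female of 0.23 (0.05 to 0.42). In endothelial cells it had 221 UMIs (46.2 CPM), 142 (20.4 CPM) and 122 (19.0 CPM), ratios of 1.14 (0.87 to 1.49) and 1.24 (0.96 to 1.61). In mesangial cells it had 115, 9 and 45 UMIs (69.9, 17.0 and 32.4 CPM). Its ratio was past the fold against both libraries in endothelial, mesangial, fibroblast-like, T and NK cells and mononuclear phagocytes, none of them assigned to the Pax2 lineage. That assignment was by class name, and fibroblast-like cells carried some Pax2 (24.9, 17.6 and 31.1 CPM in the female ERaKO, female and male libraries). The sixth class outside that lineage, smooth muscle and renin, was within the fold (0.55 and 0.58), and of the 5 classes inside the lineage none was past the fold against both, though proximal tubule was against female (0.78). In T and NK cells, with 19, 17 and 9 UMIs, the intervals against female and against male both include 0. The difference between classes was not tested. Over female the ratio was positive in 11 of 11 classes (median 0.61). Over male it was positive in 10 of 11, one of which, principal cells at 0.01, turned below 0 with TMM or median-of-ratios scaling.

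Gadd45gip1 and Scoc were lower in the female ERaKO library. Gadd45gip1 had 213 UMIs (29.9 CPM) in podocytes of the female ERaKO library, 1144 (73.7 CPM) of the female and 770 (73.4 CPM) of the male library, a ratio of -1.27 (-1.52 to -1.09) to female and of -1.27 (-1.52 to -1.08) to male. In parietal epithelial cells, the lining of Bowman's capsule, it had 121, 93 and 159 UMIs (30.4, 95.5 and 85.4 CPM), and in mesangial cells 35, 27 and 90 (21.3, 51.0 and 64.7 CPM). The 3 exceptions among 11 classes were fibroblast-like cells (30.8, 33.6 and 84.1 CPM), mononuclear phagocytes (28.9, 42.5 and 32.4 CPM) and T and NK cells (32.5, 91.6 and 37.4 CPM), where at least 1 control library lay within the fold of the female ERaKO level. The ratio to female was negative in 11 of 11 classes, from -1.84 to -0.12 (median -1.22). Intercalated cells were past the fold below both libraries (-0.63 to female and -0.61 to male), though both intervals include 0.

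Scoc had 660 UMIs (92.7 CPM) in podocytes of the female ERaKO library, 2464 (159 CPM) of the female and 1618 (154 CPM) of the male library, ratios of -0.77 (-0.90 to -0.65) and -0.73 (-0.87 to -0.60). It was past the fold below both libraries in podocyte, parietal epithelial, endothelial, mesangial and fibroblast-like cells, and not past it against both in 5 other classes. Of these, principal cells were past it below female (-0.77) but not below male (-0.53). In T and NK cells the direction turned, on few UMIs: 12, 8 and 6 (48.8, 23.6 and 24.9 CPM), with a ratio to female of 1.02 (-0.36 to 2.54) whose interval includes 0. Mononuclear phagocytes held 8, 21 and 3 UMIs (21.0, 31.8 and 4.63 CPM), with a ratio of -0.58 (-1.98 to 0.63) to female. Over male the ratio was 1.97 (0.12 to 4.73), the other direction, on under 20 UMIs and so not counted.

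B3gnt3 was an endothelial gene here. Endothelial cells held 24 UMIs (5.01 CPM) in the female ERaKO library, 254 (36.6 CPM) in the female and 167 (26.0 CPM) in the male library, ratios of -2.64 (-3.53 to -2.26) and -2.17 (-3.06 to -1.75). It was lower than both in 4 of the 4 endothelial clusters with enough UMIs over the 3 libraries, by -3.09 to -2.30 against female. The lowest of these ratios rests on 1, 9 and 16 UMIs in the female ERaKO, female and male libraries, under 20 in the pair with female. Every other class had at most 12 UMIs over the 3 libraries. Podocytes had 0, 1 and 1 UMIs, where a count of 0 allows up to 0.421 CPM (3 UMIs), so a difference in podocytes was not detectable at this depth. Proximal tubule cells had 0, 5 and 7 UMIs, below the minimum for counting, though both exact intervals lie below 0.

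**Figure D2:**
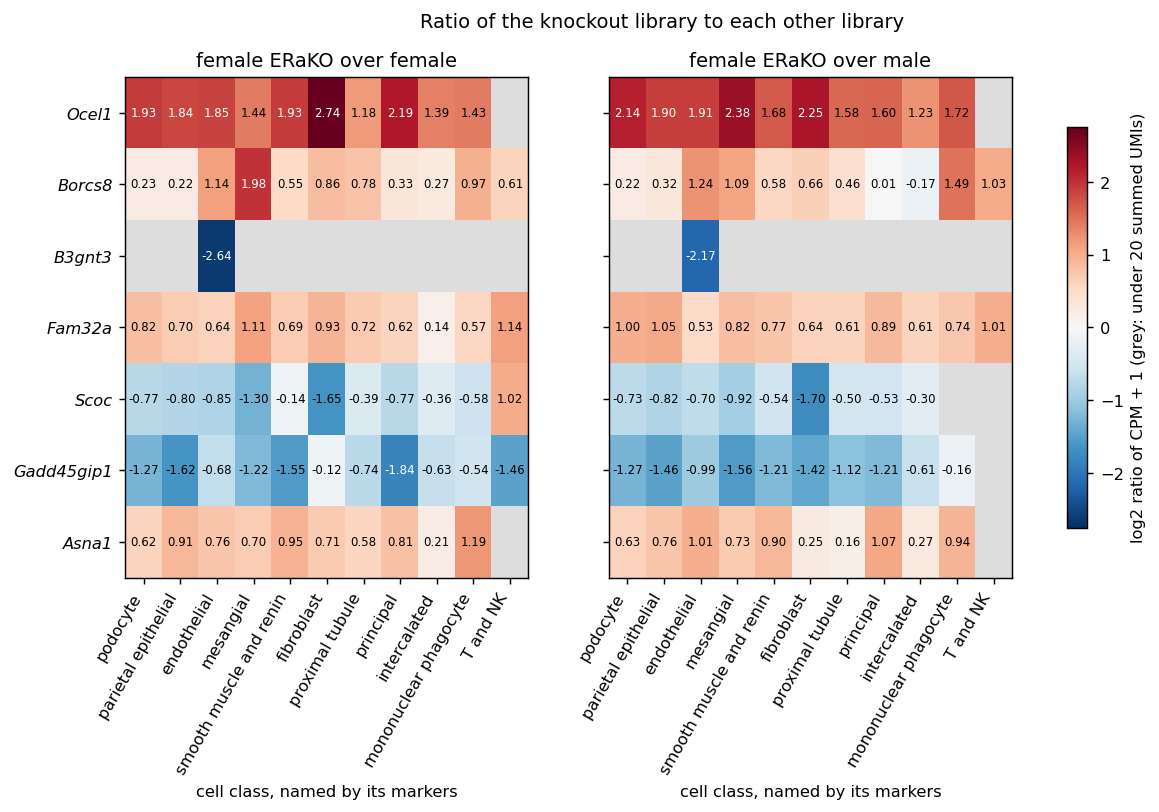
Log2 ratio of CPM + 1 of the female ERaKO library over female (left panel) and over male (right panel), with genes in rows and cell classes in columns. Red is higher and blue lower in the female ERaKO library, and grey marks pairs of libraries with under 20 UMIs. Ocel1 runs from 1.18 to 2.74 over female, and Scoc in T and NK cells (1.02) is the only red cell of its row.

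Between the control libraries the genes differed less. The median ratio of male over female across classes was -0.14 for Ocel1, 0.01 for Borcs8, -0.08 for Fam32a, -0.05 for Scoc, -0.02 for Gadd45gip1 and 0.02 for Asna1. Single classes stood out, such as Gadd45gip1 in fibroblast-like cells (1.30) and T and NK cells (-1.27), and Scoc in mononuclear phagocytes (-2.54). Endothelial B3gnt3 was -0.47.

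Counted by class, 50 of 65 pairs of gene and class were past 1.5-fold against female, and 46 of 66 were past it against both libraries in the same direction. The pair counted only against both was Asna1 in T and NK cells, with 19 UMIs in the female ERaKO and female libraries and 22 in all 3. The share of all genes past the fold was lowest in the classes with most cells. In podocytes 5 of 6 genes were past it against female, where 6.65% of all genes were, and 5 of 6 against both libraries (3.03% of all genes). Endothelial cells had 7 of 7 against female (8.82%) and 6 of 7 against both (3.95%). Mesangial cells had 6 of 6 by either count, beside 18.9% and 4.89% of all genes, and parietal epithelial cells 5 of 6 by either count, beside 18.4% and 4.35%. These 4 classes held the highest counts against both libraries. Smooth muscle and renin cells had 4 of 6 by either count (18.1% and 7.2%). Fibroblast-like cells had 5 of 6 against female (18.9%) and 4 of 6 against both (8.02%). Proximal tubule cells had 4 of 6 (14.4%) and 3 of 6 (5.87%), and principal cells of the collecting duct 5 of 6 (19.4%) and 4 of 6 (9.42%). In the other 3 classes more than 13% of all genes were past the fold by either count. Intercalated cells had 2 of 6 by either count (25.6% and 13.1%), mononuclear phagocytes 3 of 6 by either count (26.4% and 14.4%), and T and NK cells 4 of 4 against female (41.7%) and 4 of 5 against both (31.3%). The median ratio to female over all genes was 0.24 in T and NK cells and between -0.07 and 0.07 in the other classes. Because the genes were chosen on ratios between these libraries, nothing is read from their counts against these shares. Libraries also drew the proximal tubule class from different clusters, one of which held 37, 3 and 99 cells and another 85, 40 and 1 cells of the female ERaKO, female and male libraries.

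Ocel1, Fam32a, Asna1, Gadd45gip1 and Scoc were past the fold against both libraries in classes inside and outside the Pax2 lineage. Borcs8 was past it against both only outside that lineage, and B3gnt3 had enough UMIs only in endothelial cells. Pax2 itself stood at 120, 101 and 148 CPM in parietal epithelial cells of the female ERaKO, female and male libraries, but only at 0.140, 0.0644 and 0.382 CPM in podocytes, which descend from that lineage and no longer express it. It stood at 0, 0.288 and 1.25 CPM in endothelial cells and at 0, 0 and 2.16 CPM in mesangial cells, and had no UMI in mononuclear phagocytes or T and NK cells. At least 1 reporter UMI was found in 48.0%, 56.6% and 55.4% of parietal epithelial cells, 11.5%, 21.0% and 18.8% of podocytes and 5.06%, 5.09% and 7.91% of endothelial cells. The shares were 10.1%, 3.92% and 4.66% in mesangial and 19.8%, 18.6% and 18.1% in fibroblast-like cells, so the reporter did not part the classes cleanly. Summed podocyte markers in endothelial cells were at 5.32%, 6.04% and 5.58% of their podocyte level. Fibroblast-like cells carried more podocyte markers (17.9%, 26.6% and 20.7%) and some Pax2 (24.9, 17.6 and 31.1 CPM), and T and NK cells stood at 18.6%, 4.94% and 1.20%. What part such podocyte markers and Pax2 reflect in the values of these classes, endothelial cells among them, was not tested.

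Podocytes with and without a reporter UMI had overlapping intervals for 5 of the 6 genes they express. In the female ERaKO library, Ocel1 had 65.8 CPM (51.8 to 82.4) in 90 podocytes with a reporter UMI and 62.3 CPM (56.2 to 69.0) in 691 without one, against 14.6 and 16.3 CPM in the female and 12.95 and 13.6 CPM in the male library. Gadd45gip1 had 25.1 and 30.8 CPM in the female ERaKO library, 73.9 and 73.6 CPM in the female and 68.8 and 74.7 CPM in the male library. Fam32a (182 and 163 CPM), Scoc (96.1 and 92.0 CPM) and Asna1 (71.0 and 65.2 CPM) of the female ERaKO library had overlapping intervals between the cell groups. Borcs8 was the exception, at 34.6 CPM (24.7 to 47.2) with and 57.3 CPM (51.4 to 63.7) without a reporter UMI, and in cells with one it was not above the female (42.0 CPM) or male (42.4 CPM) level. A cell with no reporter UMI may still have recombined, since median depths were 8832 and 7286 UMIs in these cells. In parietal epithelial cells of the female ERaKO library the Borcs8 intervals overlapped. Levels there were 73.4 CPM (63.4 to 84.6) with and 68.7 CPM (55.5 to 84.0) without a reporter UMI.

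**Figure D3:**
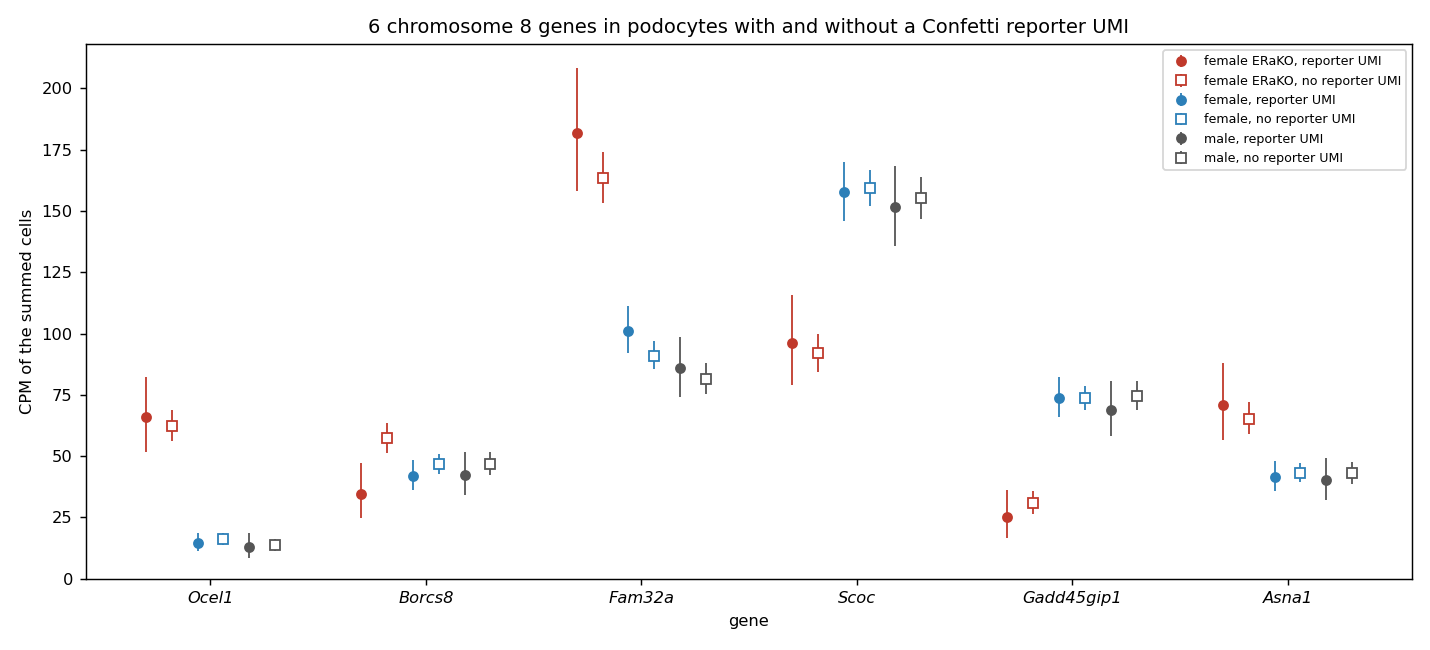
Level of 6 of the genes (CPM, linear axis from 0) in podocytes with a Confetti reporter UMI (filled circles) and without one (open squares) in the female ERaKO, female and male libraries, left to right within each gene. Bars are 95% exact Poisson intervals. In each library the pairs of points lie close together, except Borcs8 in the female ERaKO library (34.6 and 57.3 CPM).

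The shares of cells with a UMI showed how far the differences were spread over cells. Ocel1 had a UMI in 40.8% (37.4 to 44.4, exact Clopper-Pearson) of podocytes of the female ERaKO library, 15.8% (13.9 to 17.9) of the female and 11.4% (9.62 to 13.4) of the male library. After every cell was thinned to 3000 UMIs, the shares were 18.2%, 4.07% and 3.68%. In endothelial cells Ocel1 was seen in 63.9%, 26.6% and 21.5% of cells (24.7%, 9.30% and 9.73% thinned). B3gnt3 was seen in 4.85%, 29.8% and 18.8% of endothelial cells (1.90%, 10.8% and 8.04% thinned), and in 0, 1 and 1 podocytes. Gadd45gip1 was seen in 22.9%, 54.3% and 46.1% of podocytes (8.19%, 18.5% and 18.1% thinned). Of the 46 pairs past the fold against both libraries, 43 kept the direction in thinned shares. The 3 that did not were Asna1 in parietal epithelial cells (12.9%, 15.8% and 14.9% in the female ERaKO, female and male libraries), Fam32a in principal cells (23.1%, 21.4% and 28.3%) and Gadd45gip1 in intercalated cells (17.9%, 26.5% and 12.7%). Asna1 in mesangial cells was nearly level, at 10.7%, 9.80% and 10.4%. In podocytes of the female ERaKO library, the cell richest in Ocel1 held 1.12% of its UMIs. Cluster by cluster, Ocel1 was past the fold above both libraries in 17 of 17 clusters, Fam32a in 14 of 19, Asna1 and Borcs8 in 10 of 19 each, and Gadd45gip1 below both in 15 of 19. Scoc was below both in 10 of 19 clusters and above both in 1.

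The nearest genes that could be compared lay within the fold in podocytes. The nearest gene on either side of each member that did not overlap it and had at least 20 UMIs in podocytes and in endothelial cells, 14 in all, had podocyte ratios to female between -0.56 and 0.45, and none was past 1.5-fold. Use1, which ends 1.57 kb before Ocel1, stood at 0.02 in podocytes and 0.02 in endothelial cells, and Ushbp1 after it at 0.45 and 0.03. Calr, next to Gadd45gip1, stood at 0.03 and 0.07, and Trir, 1.54 kb from Asna1, at 0.02 and 0.21. On the other sides of these members, Dand5 (-0.56 and -0.11) and Hook2 (-0.56 and -0.04) had the lowest podocyte ratios of the 14. Hook2 was past the fold below both libraries in 3 of 6 classes, and Dand5 in 1 of 9. In endothelial cells 1 of the 14 was past the fold, Zfp709 (-0.62), which lies 180.2 kb from B3gnt3. Nr2f6, which overlaps Ocel1 on the opposite strand, had 302, 651 and 399 UMIs in podocytes, a ratio of 0.02 (-0.19 to 0.21). The sources used here do not give whether counting used strand, so reads of overlapping genes may have been split. Mef2b, which overlaps Borcs8 on the same strand, was past the fold above both libraries in podocytes on few UMIs (12, 7 and 5), with ratios of 0.89 (0.44 to 3.49) and 0.86 (0.21 to 3.68).

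**Figure D4:**
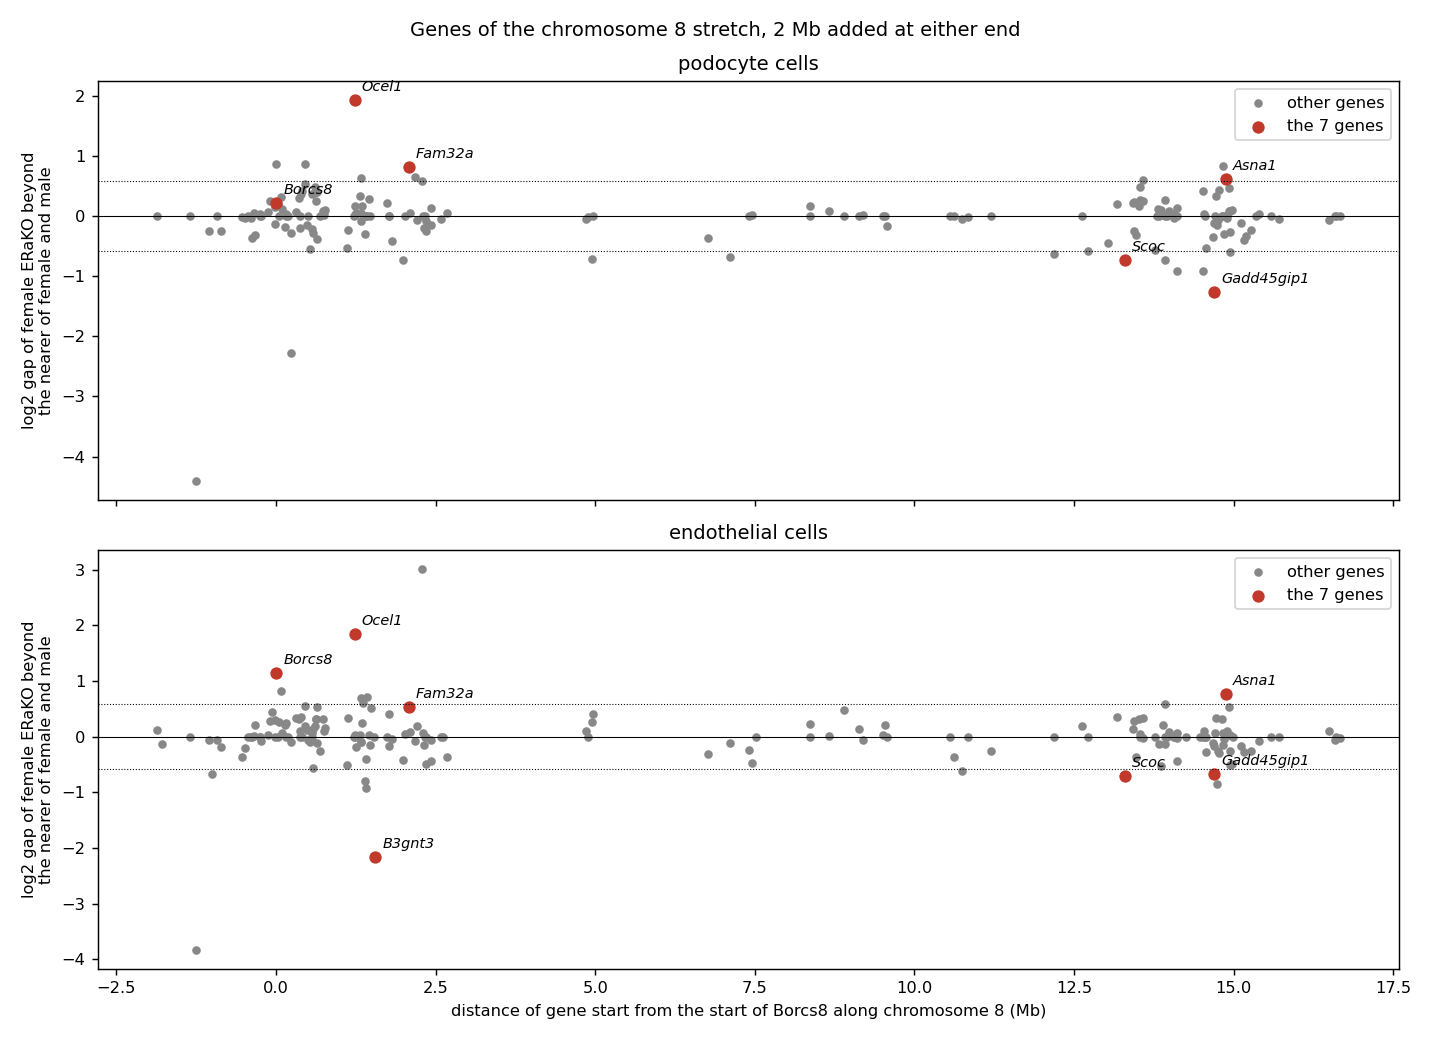
Each point is a gene with at least 20 UMIs in podocytes (top) or endothelial cells (bottom), placed by its distance from the start of Borcs8 in Mb, with 2 Mb added at either end of the stretch. The vertical axis is the log2 gap of the female ERaKO level beyond the nearer of the female and male levels (0 where it lies between them), and dotted lines mark 1.5-fold. The 7 genes are the large red points, with Ocel1 at 1.93 in podocytes and 1.85 in endothelial cells, and some other genes lie as far out, such as Calr3 at 3.01 in endothelial cells and Comp at -2.28 in podocytes.

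The other genes of the stretch were past the fold more often than those of any other chromosome in podocytes. Of its 136 other genes counted in podocytes, 15 (11.03%) were past the fold beyond both libraries, 7 higher and 8 lower, beside 3.03% of all genes. The part of chromosome 8 before the stretch had 10 of 218 (4.59%) and the part after it 8 of 284 (2.82%), and the 19 other chromosomes had between 1.19% and 5.03% (median 2.91%). In endothelial cells it was 10 of 140 (7.14%), beside 3.14% before, 3.50% after and 2.55% to 5.49% on other chromosomes. Mesangial cells had 8.77%, beside 2.87% to 7.12% on other chromosomes, parietal epithelial cells 9.23%, beside 3.06% to 8.26%, and proximal tubule cells 9.56%, beside 3.43% to 7.89%. In these 5 classes the share was above that of each of the 19 other chromosomes, on 10 to 15 genes a class. The bounds of the stretch were set by genes picked on these same libraries. Whole chromosomes hold more genes than the stretch, and no window of its size elsewhere was compared. The classes come from the same mice and share genes, so they are not separate observations. Smooth muscle and renin cells had 13.2%, beside 7.2% of all genes of their class, intercalated cells 16.9% beside 13.1%, and mononuclear phagocytes 24.7% beside 14.4%. T and NK cells (32.8% beside 31.3%) and fibroblast-like cells (8.08% beside 8.02%) were close to all genes of their class, and principal cells (7.77% beside 9.42%) lay below them. The 15 podocyte genes were spread along the stretch, with 5 of 56 between Borcs8 and Fam32a, 5 of 40 between Fam32a and Scoc, and 5 of 40 from Scoc to Asna1. Singled out after their values were seen, Mri1, an enzyme of the methionine salvage pathway, was lower than both libraries in 6 of 11 classes (podocyte ratios -0.91 and -1.02 to female and male). Lpl, lipoprotein lipase, lies 1.26 Mb before Borcs8 and outside the stretch, and had podocyte ratios of -4.51 and -4.40.

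**Figure D5:**
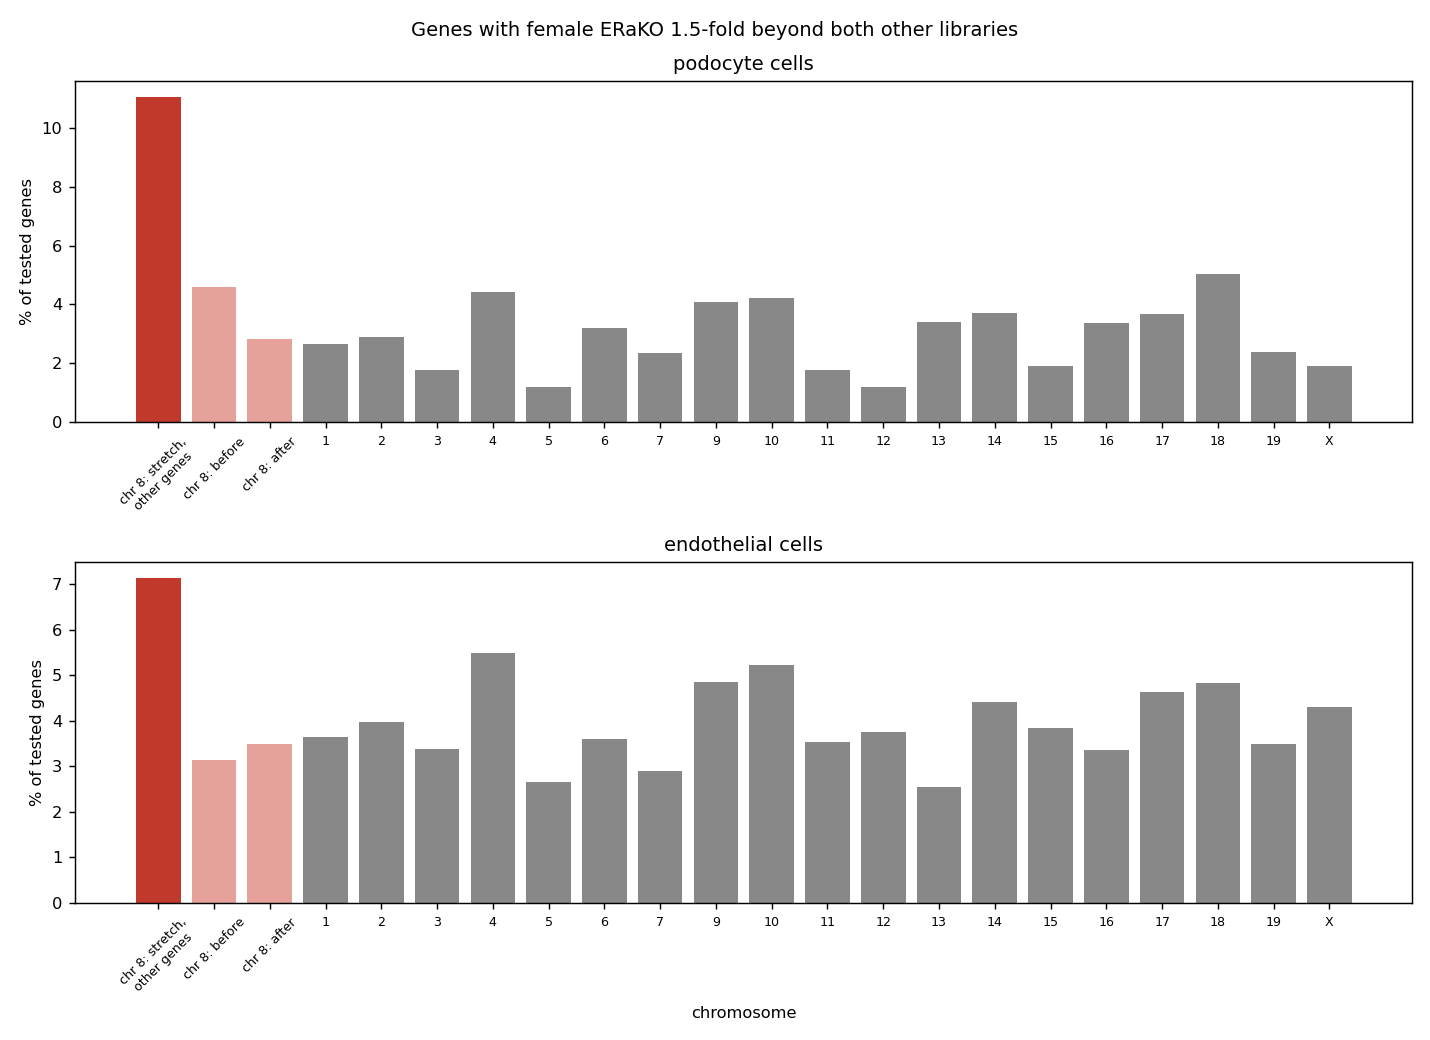
Share (%) of genes with at least 20 UMIs whose female ERaKO level was 1.5-fold beyond both the female and male levels, in podocytes (top) and endothelial cells (bottom), for the other genes of the stretch (red), the rest of chromosome 8 before and after it (pale red) and each other chromosome (grey). The stretch stands at 11.03% in podocytes and 7.14% in endothelial cells.

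A stricter count asked for the same direction beyond both libraries in every class with enough UMIs, with at least 3 such classes. Of 12015 genes, 16 met it for the female ERaKO library (0.133%), compared with 8 for the female (0.0666%) and 15 for the male library (0.125%) by the same rule. Sex chromosome genes were not left out of these counts, and they can set the only male library apart. Of the 7 genes only Ocel1 met the rule for the female ERaKO library, the other 6 having at least 1 class not past the fold against both libraries, or too few classes. One other gene of the stretch met it, Calr3, a relative of the endoplasmic reticulum chaperone calreticulin, so that the stretch had 2 of 144 genes and the rest of chromosome 8 had 0 of 507. Calr3 had 45, 2 and 0 UMIs in endothelial cells, 30, 0 and 0 in mesangial cells and 21, 15 and 17 in podocytes of the female ERaKO, female and male libraries. Elsewhere, Ccnb1ip1 and Tpm3-rs7 (chromosome 14), Akr1e1 (chromosome 13) and Arsi (chromosome 18) were higher, and Angptl7 and Zfp985 (chromosome 4), Tgtp2 and Adap2os (chromosome 11) and Rpgrip1 (chromosome 14) lower. Akr1e1, an aldo-keto reductase, had 207, 24 and 27 UMIs in podocytes. Chromosome 14 had the highest share, 3 of 396 genes (0.758%).

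A mean profile was taken over 6 members (all but B3gnt3), with the lower ones sign-flipped. The genes most like it were named by Pearson correlation over 30 values (10 classes in 3 libraries, centred within class) among 5691 genes. They were Fkbp8 (0.87), Rpl29 (0.87), Rex1bd (0.87), Ssr2 (0.85) and Pebp1 (0.82). Values of 1 library share its cells and depth, so these are descriptions. Fkbp8 and Rex1bd lie in the stretch, at 70527724 to 70535328 and 70504292 to 70506752. Fkbp8, a mitochondrial immunophilin, had 223, 172 and 170.4 CPM in podocytes and 126, 88.9 and 97.99 CPM in endothelial cells of the female ERaKO, female and male libraries. Rpl29 (chromosome 9) had 478, 119 and 27.0 CPM in podocytes, and as a ribosomal protein gene it has near-identical copies between which reads may be split.

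Genes that work with the members stayed mostly within the fold. Of the 7 other BORC subunits counted, none was past the fold beyond both libraries in podocytes or endothelial cells (3.03% and 3.95% of all genes), with median ratios to female of -0.12 and 0.00. The same held for 6 other genes of tail-anchored protein insertion (medians 0.10 and 0.03) and for 77 other mitochondrial ribosomal protein genes (0.02 and 0.13). None of the 6 autophagy partners of Scoc or the 3 genes with related occludin or ELL domains was past the fold beyond both libraries in either class. Of 3 Gadd45 genes, Gadd45a was lower in endothelial cells, at 17.3, 28.6 and 27.7 CPM (-0.69 to female). Of 4 other beta-1,3-N-acetylglucosaminyltransferase genes, B3gntl1 was higher in endothelial cells, with 31, 19 and 19 UMIs (6.48, 2.73 and 2.96 CPM).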

How the data were processed

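Cells from glomeruli of 1 female ERaKO, 1 female and 1 male mouse were measured in 1 droplet library each. The authors deposited unnormalized UMI counts for each gene in each cell, over barcode lists they had already filtered. Cell Ranger 6.1.2, STAR 2.7.5a and mm10 are named in the submitters' processing notes, with no parameters; the filter on barcodes and the strand setting are not given in the sources used here. Of 31058 gene rows, 31011 were placed by Ensembl ID on GENCODE M21 (GRCm38).

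Cells needed 500 genes or more and no more than 25% of UMIs from mitochondrial genes, and doublets called by the Scrublet method in scanpy 1.11.5 were removed (142, 53 and 112 in the female ERaKO, female and male libraries). The 8539 kept cells were clustered (30 principal components of 2000 variable genes, 15 neighbours, Leiden resolution 1 with leidenalg 0.10.2). The 26 clusters were named from 18 marker lists, with a mean log2 score of 1 or more, a lead of 0.75 over the next list and 3 or more markers behind it. This left 2.63%, 5.62% and 3.91% of the cells of the 3 libraries unnamed, and classes with under 20 cells in a library were left out. The scripts ran on Python 3.11.15 with matplotlib 3.10.9, scikit-learn 1.9.0, pandas 2.3.3, scipy 1.17.1 and numpy 2.4.6.

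Counts were summed per class and library and scaled to CPM. Class sums in podocytes were 7122578, 15522633 and 10484093 UMIs, and in T and NK cells 245810, 338573 and 240649. The intervals are exact conditional (ratios), exact Poisson (levels) and Clopper-Pearson (shares), at 95%, and the count scripts were tested on simulated data. The members and gene lists were chosen with earlier results of these data known. Beyond the members, the rule named genes shifted in every class alike (all in the stretch, and up to 10 elsewhere, without ribosomal protein, predicted and sex chromosome genes) and the 5 with the most similar profile. One result is not reported here.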

Additional observations from a re-analysis of the deposited data

Results flagged for a closer look

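Scoc in T and NK cells went against its direction in the other classes: the log2 ratio of female ERaKO over female was 1.02 there and negative in the 10 other classes. The difference between classes was not tested. It rests on 12, 8 and 6 UMIs in the female ERaKO, female and male libraries, and its interval includes 0.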

How the results depend on the processing

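No paired analysis was possible because each group is 1 library. With 1 mouse a group, neither the spread between mice nor a left-out replicate can be had, and T and NK cells had enough UMIs for only 4 members against female. No ratio past the fold turned its direction under the settings tried; 3 ratios within it changed sign, Borcs8 over male in principal cells under both scalings and cell-by-cell naming, and, under that naming, Scoc over female and Gadd45gip1 over male in mononuclear phagocytes. Of 65 pairs of gene and class, the 50 past the fold against female became 50 with TMM scaling, 49 with median-of-ratios scaling, 52 with a pseudocount of 0.5 CPM and 47 with 5 CPM, 57 of 77 with no minimum, 41 of 53 with a minimum of 50, and 25 at 2-fold. Both scalings shifted the median of all genes by over 0.1 only in T and NK cells (-0.32 and -0.29). The 2 genes of the stretch beyond both libraries in every class became 1 with 5 CPM, no minimum, a minimum of 50, 2-fold or doublets kept. Members past the fold against female became 1 in intercalated cells (from 2) with 5 CPM, a minimum of 50 or 2-fold; with a minimum of 50 also 1 (from 3) in mononuclear phagocytes and 0 (from 4) in T and NK cells; and 2 in T and NK cells under a filter of 1000 genes or more and no more than 10% mitochondrial UMIs. At 2-fold they were 2 in podocyte, parietal epithelial, smooth muscle and renin, fibroblast-like and principal cells, 3 in endothelial and 1 in proximal tubule cells. With doublets kept, fibroblast-like cells had 3 (from 5). The cause was not tested. Shares of all genes under these settings are not given here. The counts therefore say nothing of the members against other genes. The stricter filter left principal and intercalated cells too few, and naming cell by cell left out fibroblast-like cells. Over every deposited barcode, the whole-library ratios to female were 1.49 for Ocel1 (1.66 in kept cells), 0.45 for Borcs8 (0.63), -2.05 for B3gnt3 (-2.15), 0.52 for Fam32a (0.71), -1.01 for Scoc (-0.91), -1.14 for Gadd45gip1 (-1.03) and 0.50 for Asna1 (0.67). Borcs8, Fam32a and Asna1 were thus past 1.5-fold in kept cells and within it over every deposited barcode.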
